A study of Cucurbita pepo with 18 samples.

Results

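The genes described here peaked at 10 days after pollination (DAP) in the seed coats of both a hulled (H) and a hull-less (HL) accession of Cucurbita pepo. Members were chosen by their levels in these libraries, as counts scaled to the library total (CPM). A feature was a member if its mean CPM at 10 DAP was at least 5 and at least 4 times the means at 5 and at 20 DAP, in H and in HL alike. The rule took 135 of 29484 features (0.458%), of which 131 were annotated genes and 4 were loci outside the annotation. It was met by 333 features in H and by 332 in HL. Because these CPM values chose the members, the rise to 10 DAP and the fall after it are given as a description with no test.

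RNA of whole seed coats was sequenced in 18 libraries, with 3 biological replicates in each of 6 groups: H at 5, 10 and 20 DAP and HL at 5, 10 and 20 DAP. H forms a lignified coat, and HL carries a recessive mutant allele of CpNST1, a NAC transcription factor of secondary cell wall (SCW) formation. Each coat type is represented by a single accession, so the hull-less allele and the rest of the genetic background cannot be told apart. Libraries held 13827773 to 18443048 counts, and 3 counts, taken as the floor where a gene was not counted, equalled 0.163 to 0.217 CPM.

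The seed coat is maternal tissue around the embryo and endosperm, and its cell layers stop dividing and expand before some of them deposit an SCW. Expanding cells remodel a primary wall in which xyloglucan, a branched glucan, binds cellulose. Calcium-binding proteins, mitogen-activated protein kinases and the phosphatases that act on them relay wounding, cold, drought and growth signals in plants, and genes for such proteins are often switched on and off within a short time.

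The seed coat marker list (26 genes) summed to 1338 to 2668 CPM in every library. Of 7 endosperm markers 1 was at 0 in all libraries, and the list summed to at most 45.4 CPM at 5 and 10 DAP. The embryo and storage list (137 genes, 7 at 0 in all libraries) summed to 2358 to 12465 CPM, above the seed coat list in every library. The lists differ in length, so their sums do not rank the amounts of each tissue. None of the 68 SCW orthologs listed for this species in the study was a member. Members were 0.458% of all 29484 features, so a count of 0 among 68 genes does not set the members apart from that list.

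One library stood apart, and it bears on most of the results. Hulled replicate 1 at 10 DAP correlated with replicates 2 and 3 at 0.717 and 0.791 across genes, on log2(CPM + 1), whereas the other replicate pairs of a group lay between 0.938 and 0.988. The members made up 0.986% of the counts in this library, against 5.21% and 4.48% in the other H libraries at 10 DAP and 6.04%, 5.15% and 6.36% in HL. At 5 DAP their share was 0.574%, 0.163% and 0.502% in H and 0.870%, 1.10% and 0.351% in HL. At 20 DAP it was 0.255%, 0.358% and 0.423% in H and 0.671%, 0.418% and 1.09% in HL. By this summed share hulled replicate 1 lay above all 5 and 20 DAP libraries of H but far below its own group. By the median over the members (13.9 CPM) it lay below hulled replicates 1 and 3 at 5 DAP (16.1 and 14.1 CPM). It also lay below hulled replicate 3 at 20 DAP (17.4 CPM), and above the other H libraries of those stages.

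**Figure D1:**
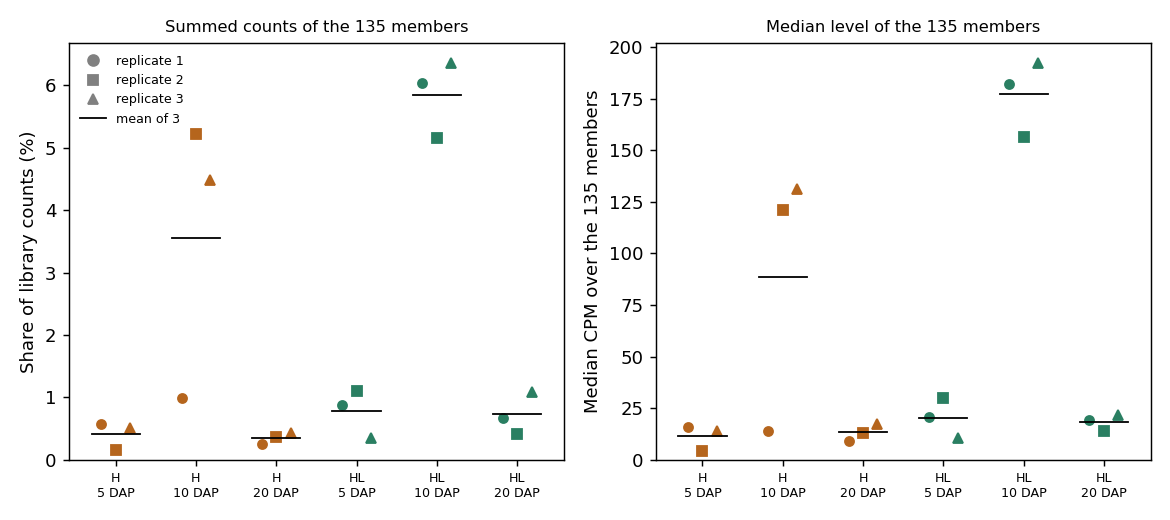
Share of library counts taken by the 135 members (left, %) and their median CPM (right) in each library of hulled (H, brown) and hull-less (HL, green) seed coats; symbols are replicates and lines are means of 3. Hulled replicate 1 at 10 DAP held 0.986%, the other 10 DAP libraries 4.48% to 6.36%.

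In this library 102 members (75.6%) had less than 0.25 of the mean of replicates 2 and 3, compared with 741 of the 14074 features that reached 5 CPM at 10 DAP in both accessions (5.27%). The median ratio was 0.0724 for the members and 1.22 for those features. For 78 members the library was below the H mean at 5 DAP. Other values that moved with it were the summed pollen or anther list (177 genes, 26 at 0 in all libraries, 2 of them members), at 27112 CPM against 7963 and 6831 CPM, and the sum of 3 SCW cellulose synthases and CpNST1, at 408 CPM against 72.1 and 204 CPM. Their part in the low member levels was not tested. Without this library the rule took 169 features, 127 of them members.

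**Figure D2:**
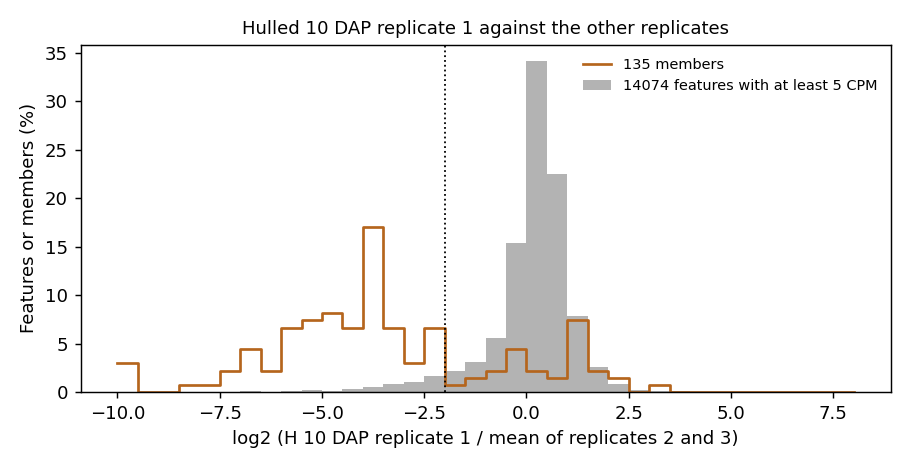
Ratio of hulled replicate 1 at 10 DAP to the mean of replicates 2 and 3 (log2, x axis), as a percentage of the 135 members (brown line) and of 14074 features with at least 5 CPM at 10 DAP (grey bars). The dotted line marks a ratio of 0.25, below which 75.6% of members and 5.27% of features lay; the leftmost bin also holds lower ratios.

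Counted library by library, all 3 HL libraries at 10 DAP lay above every 5 and 20 DAP library of HL for 128 members (7.96% of all features did so). All 3 H libraries did so for 36 members, where 4.81% of all features did, and all 6 libraries for 35, where 1.9% did. These counts repeat the contrast that chose the members and support nothing further. Hulled replicate 1 was the sole exception for 88 members. In 11 other members the exceptions were hulled replicate 2, hull-less replicate 3 or both, and in 1 member hulled replicates 1 and 2.

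**Figure D3:**
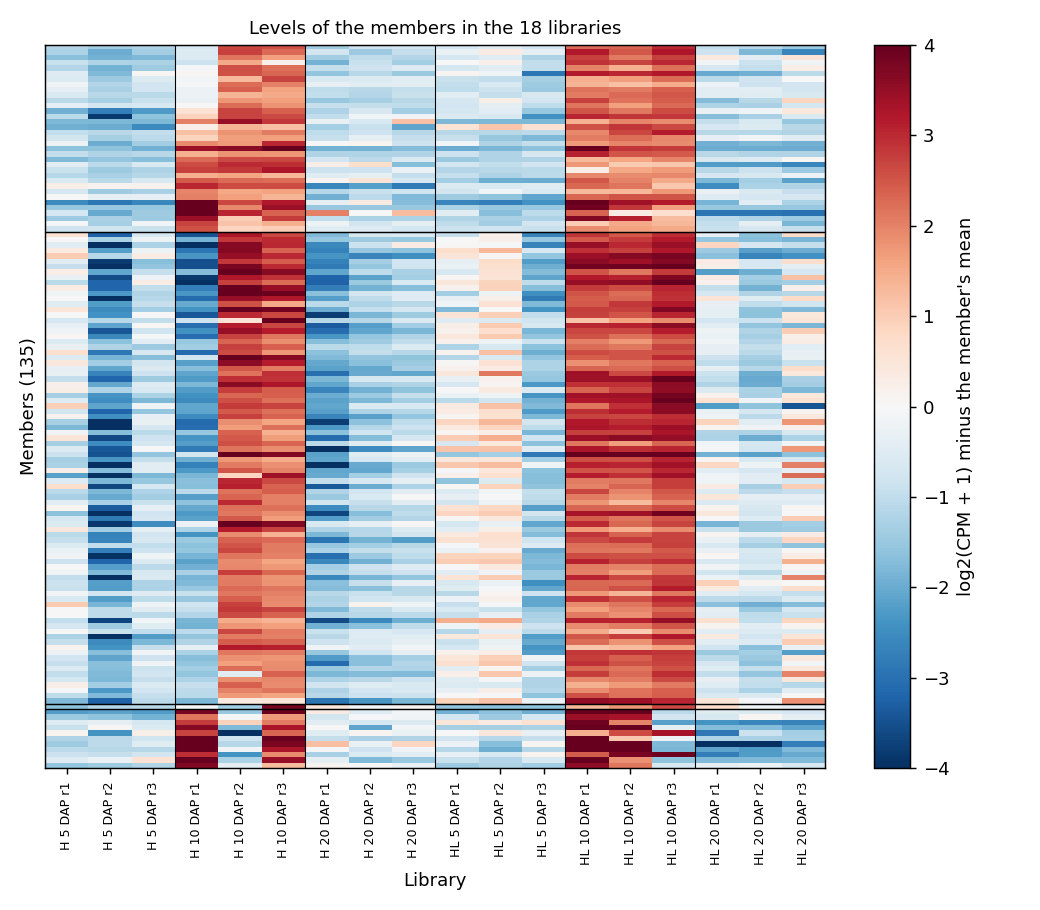
Level of each of the 135 members (one line each) in the 18 libraries, as log2(CPM + 1) minus the mean of that member; red is higher. From top to bottom, blocks hold 35 members high in all 6 libraries at 10 DAP, 88 low in hulled replicate 1 alone, 1 low in hulled replicates 1 and 2, and 11 low in hulled replicate 2 or hull-less replicate 3.

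The median member stood 8.72 times higher at 10 than at 5 DAP and 10.1 times higher than at 20 DAP in H, and 8.09 and 9.15 times higher in HL. The members lay on 21 linkage groups, as the files number them, and had a median transcript length of 1506 bases, compared with 1949 bases over the 14074 features. A protein description was given for 98, a domain alone for 22 and neither for 15. Wall enzymes by description made up 6.67% of members and 1.93% of those features, whereas the shares were 9.63% and 9.77% for words of transcription factors and 11.1% and 11.4% for words of signalling.

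By the deposited FPKM, which corrects for length, the member with the highest level at 10 DAP was Cp4.1LG06g02250, a short gene with no description (4633 FPKM, mean of both accessions). EXORDIUM (Cp4.1LG07g01240), whose Arabidopsis counterpart promotes growth in response to brassinosteroid, followed with 3077 FPKM. Its CPM in H went from 102, 16.5 and 183 at 5 DAP to 63.8, 1396 and 1170.3 at 10 DAP, and then to 24.1, 97.6 and 158 at 20 DAP, for replicates 1, 2 and 3 in that order, which is kept below. In HL it was 583, 646 and 193, then 3160.4, 3373 and 4647, then 436, 189 and 319.9 CPM. The HL libraries at 10 DAP lay clear of all others, and hulled replicate 1 at 10 DAP fell among the 5 and 20 DAP libraries.

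ERD7 (Cp4.1LG05g13780), a protein named for its induction by drought in Arabidopsis, reached 108, 6571 and 5208 CPM in H and 3741, 3740.2 and 5237 CPM in HL at 10 DAP. Its 5 DAP levels were 539, 54.5 and 340.0 in H and 669, 932 and 165 CPM in HL. At 20 DAP they were 70.9, 139 and 166 and 513, 256 and 1166 CPM. Tetraspanin-8 (Cp4.1LG04g12630), a membrane protein, was one of the 35 members with all 6 libraries at 10 DAP on top, at 692, 2355 and 2272 CPM in H and 2988, 2639 and 2591 CPM in HL. Among the 10 members with the highest FPKM were also Cp4.1LG02g06260, which has no description, and Cp4.1LG18g03410, which carries an endonuclease domain of transposase type.

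Calcium and phosphorylation signalling held 14 members, a grouping made from the descriptions after values were seen, as are those that follow. Hulled replicate 1 was under 0.25 of its partners in 13 of these 14. The calcium-binding protein CML50 (Cp4.1LG19g00460) rose from 335, 110.5 and 238 CPM in H and 282, 341 and 134 CPM in HL at 5 DAP. At 10 DAP it stood at 151, 2543 and 1862 in H and 1519, 1199 and 1789 CPM in HL. At 20 DAP it was back at 163, 198 and 211 and 215, 173 and 316 CPM, so that its 5 and 20 DAP libraries overlapped in each accession.

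Protein phosphatase 2C 25 (Cp4.1LG02g11790), which in Arabidopsis dephosphorylates mitogen-activated protein kinases, measured 32.1, 1023 and 844 CPM in H and 2188, 1798 and 1926 CPM in HL at 10 DAP. A pair of genes described as mitogen-activated protein kinase 3 were both members: Cp4.1LG00g06980 had 817, 773 and 799.8 CPM and Cp4.1LG02g12910 had 288, 283 and 356 CPM in HL at 10 DAP. In H the corresponding values were 35.7, 588 and 542 CPM and 13.1, 265 and 264 CPM. They share a description and no sequences were compared, so whether they share reads was not tested. The receptor-like kinase FERONIA (Cp4.1LG10g07470), which senses wall and peptide signals in Arabidopsis, and the kinase PTI1-like 3 (Cp4.1LG08g05990) showed the same order of libraries, with 19.8, 264 and 239.9 CPM and 24.00, 1072 and 813 CPM in H at 10 DAP.

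Of 8 members read as transcription factors, 7 were low in hulled replicate 1. DREB1D (Cp4.1LG05g06700), of the AP2/ERF family that activates cold and drought genes in Arabidopsis, had 3.05, 638 and 369 CPM in H and 677, 689 and 996 CPM in HL at 10 DAP. At 5 DAP it had 23.5, 0.116 and 14.6 CPM in H and 37.9, 72.5 and 10.95 CPM in HL, and at 20 DAP 5.59, 15.1 and 26.1 and 53.4, 28.9 and 34.8 CPM. Its relative DREB1A (Cp4.1LG13g01840) reached 57.9, 51.1 and 70.4 CPM in HL and 0.0565, 98.1 and 39.02 CPM in H. DREB1A lies beside 2 other members on linkage group 13, Cp4.1LG13g01820 and the nucleotide sugar transporter Cp4.1LG13g01810, all on the plus strand between bases 1392367 and 1410292 in the deposited coordinates. The zinc finger repressors ZAT11 (Cp4.1LG05g08890) and AZF3 (Cp4.1LG04g07540) stood at 336, 282 and 305 CPM and 236, 258 and 443 CPM in HL at 10 DAP. TGA4 (Cp4.1LG11g05030), a bZIP factor of defence and nitrate responses in Arabidopsis, had 0.621, 121 and 66.6 CPM in H at 10 DAP. HSF30 (Cp4.1LG11g00150), described as a heat stress factor, was the exception to the drop, with 87.1, 113 and 115 CPM in H, and it overlaps a gene on the opposite strand. Its listed domains also include a mitochondrial carrier domain, and which part of the gene model the counts came from was not tested.

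The cell wall and nucleotide sugar genes numbered 15, and 11 of them were low in hulled replicate 1. They included successive steps of xyloglucan synthesis: a pair of glucan synthases (xyloglucan glycosyltransferase 12), the xylosyltransferase XXT2 and the galactosyltransferase MUR3. Of 89 features whose description holds the word xyloglucan, 40 reached 5 CPM at 10 DAP in both accessions and 5 were members. The glucan synthase Cp4.1LG02g06370 went from 109, 10.3 and 113 CPM in H at 5 DAP to 8.36, 1257 and 1012 CPM at 10 DAP, and then to 13.6, 29.6 and 51.5 CPM at 20 DAP. Its HL values were 138, 198 and 30.6, then 1210.4, 1144 and 1819, then 170.4, 52.1 and 303 CPM. The copy Cp4.1LG06g02180 ran in parallel, at 13.9, 1080.3 and 779.9 CPM in H and 992, 1037 and 1497 CPM in HL at 10 DAP, and whether it shares reads with the first was not tested.

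XXT2 (Cp4.1LG03g11370), which adds xylose to the glucan, had 54.9, 555 and 522 CPM in H and 415, 438 and 697 CPM in HL at 10 DAP. MUR3 (Cp4.1LG15g01070), which adds galactose, had 16.4, 924 and 678 CPM and 276, 337 and 401 CPM. XTH16 (Cp4.1LG15g08640), an enzyme that cuts and rejoins xyloglucan, reached 9.37, 1369.6 and 972 CPM in H and 2312, 2443 and 3429.8 CPM in HL. It overlaps genes on the opposite strand, as do 13 other members, and the strandedness of the libraries is not given, so reads of the 2 strands cannot be told apart.

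Among the other wall genes, laccase-17 (Cp4.1LG08g11640), a lignin-polymerising oxidase in Arabidopsis, and expansin-like B1 (Cp4.1LG05g02200) did not fall in hulled replicate 1. Expansin-like B1 had no count in H at 5 and 20 DAP or in HL at 20 DAP. At 10 DAP it had 48.7, 9.87 and 29.97 CPM in H, at least 172-fold above the floor of 3 counts per library at 5 DAP and at least 144-fold above that at 20 DAP. In HL it had 40.4, 19.1 and 7.83 CPM, at least 132-fold above the floor at 20 DAP.

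Hormone genes were 3, and all were low in hulled replicate 1. Abscisic acid 8'-hydroxylase 1 (Cp4.1LG14g02890), which inactivates abscisic acid, had 12.7, 355 and 516 CPM in H and 1088, 988 and 1196 CPM in HL at 10 DAP, with H and HL at 5 DAP at 31.5, 4.64 and 70.2 and 146, 203 and 55.3 CPM. YUCCA8 (Cp4.1LG05g00970), an enzyme of auxin synthesis, had 0.226, 68.5 and 49.5 CPM and 64.96, 77.05 and 85.96 CPM. SAUR32 (Cp4.1LG05g05810), of an auxin-responsive family, was the lowest of the 3 by FPKM, with 29.7, 26.3 and 32.8 CPM in HL.

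A smaller set of members followed another order of libraries at 10 DAP. In 9 members (6.67%) both hulled replicate 2 and hull-less replicate 3 were under 0.25 of the mean of their partners, compared with 92 of the 14074 features (0.654%). The 10 DAP values also chose the members, so these shares are a description only. None (0) of these 92 were low in hulled replicate 1. That count was nearly fixed in advance, since both hulled ratios can be under 0.25 only where replicate 3 lies far above replicates 1 and 2. The vacuolar-processing enzyme γ-VPE (Cp4.1LG18g04270), a vacuolar cysteine protease, showed it at the highest level, with 2278, 45.7 and 1408 CPM in H and 5799, 2001 and 29.5 CPM in HL. Its low libraries lay within the range of H at 5 DAP (37.3, 48.4 and 72.1 CPM) or below that of HL at 5 DAP (87.5, 30.9 and 111 CPM).

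Laccase-17 had 558, 32.97 and 102 CPM in H and 518, 187 and 26.5 CPM in HL. Galactinol synthase 2 (Cp4.1LG17g00140), the first step to the raffinose sugars, had 64.8, 0.651 and 71.01 CPM and 87.1, 126 and 1.29 CPM. The metalloproteinase 3-MMP (Cp4.1LG01g23180) and alpha carbonic anhydrase 7 (Cp4.1LG03g01570) gave 54.3, 4.17 and 1.12 CPM and 89.9, 11.2 and 0.112 CPM in HL, so that hull-less replicate 1 carried most of their mean. The others were the PAR1-domain gene Cp4.1LG08g11910, the EF-hand gene Cp4.1LG02g07030, the lipid-transfer gene Cp4.1LG01g18720 and a locus outside the annotation. For these 9, the 10 DAP mean of H thus rests mainly on replicates 1 and 3, and that of HL on replicates 1 and 2.

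Members with all 6 libraries at 10 DAP above those of 5 and 20 DAP included inositol transporter 2 (Cp4.1LG20g05380). It had 1310.3, 986 and 991 CPM in H and 791, 713 and 340.3 CPM in HL. Malate synthase (Cp4.1LG20g03190), an enzyme of the glyoxylate cycle, was another, with 511, 664 and 657 CPM and 279, 176 and 177 CPM. Trypsin inhibitor 1 (Cp4.1LG14g04630) had 42.4, 47.2 and 70.7 CPM in H and 149, 27.9 and 26.4 CPM in HL, and no count in HL at 20 DAP, which makes the HL level at 10 DAP at least 396-fold above the floor. The small heat shock protein gene Cp4.1LG15g04660 had no count at 5 DAP in either accession. It stood at 13.2, 37.7 and 23.7 CPM in H at 10 DAP, at least 145-fold above the floor, and at 8.07, 12.6 and 11.98 CPM in HL, at least 62.4-fold above it.

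**Figure D4:**
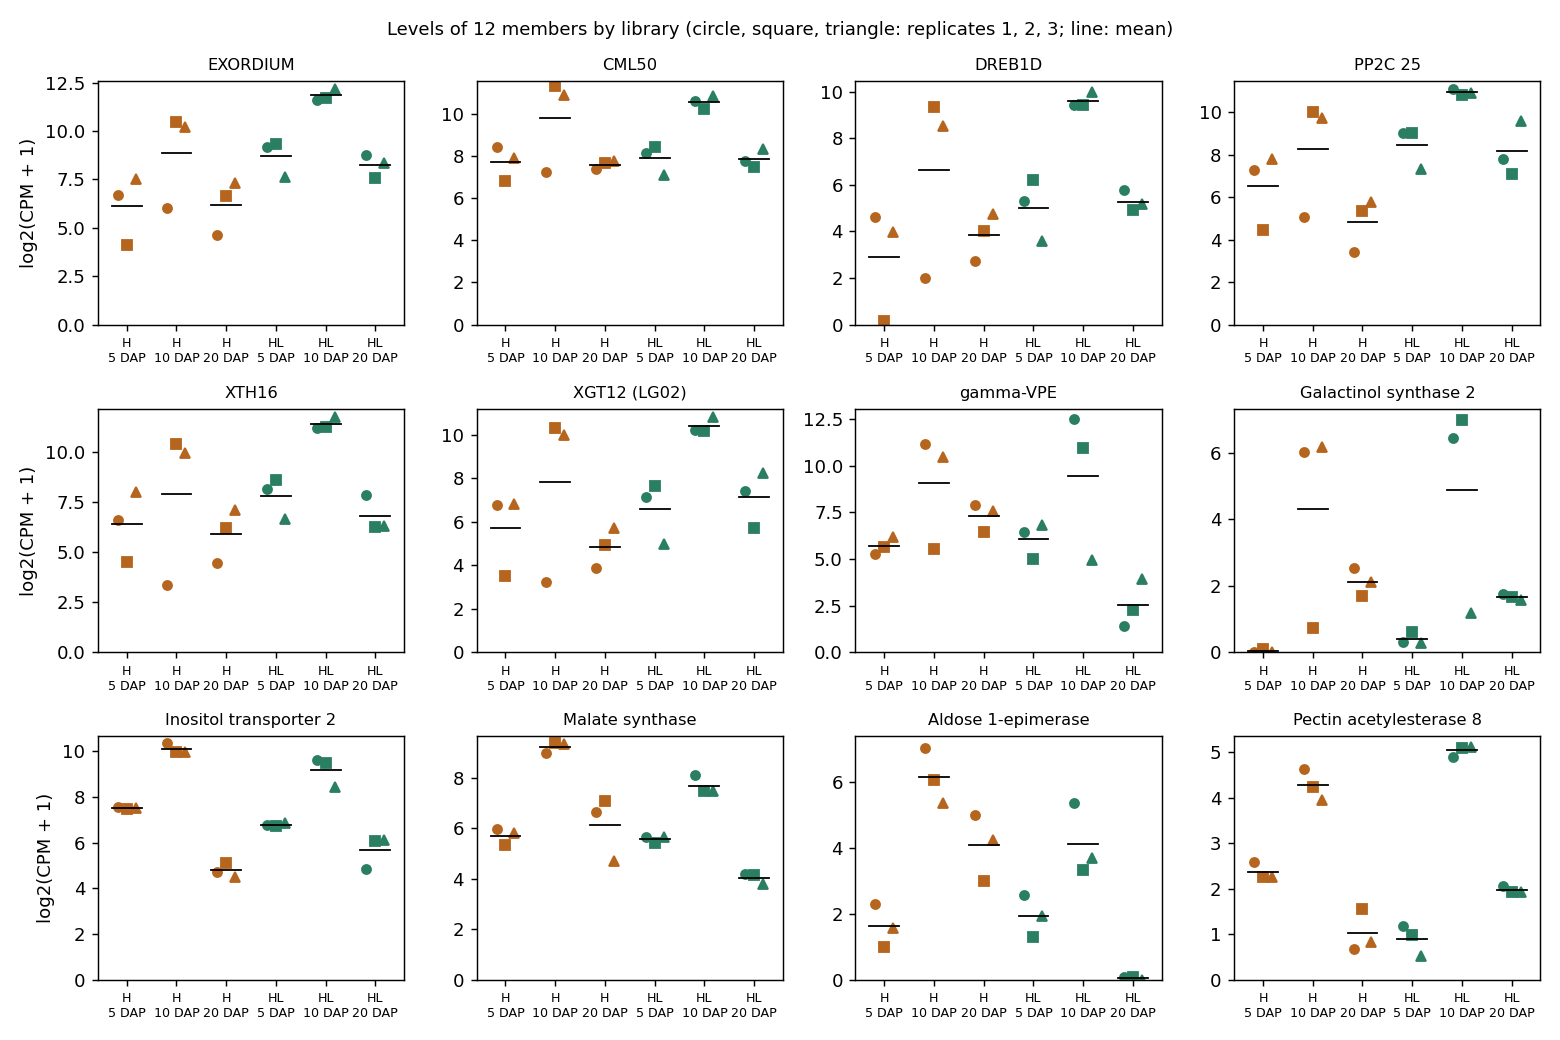
Levels of 12 members as log2(CPM + 1) in each library of H (brown) and HL (green); circle, square and triangle are replicates 1, 2 and 3 and lines are means. The top 6 genes show hulled replicate 1 at 10 DAP far below replicates 2 and 3; γ-VPE and galactinol synthase 2 show hulled replicate 2 and hull-less replicate 3 low instead.

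The members also shared an order of replicates at 5 and 20 DAP. The rule used the means of these libraries, which a low library reduces, so the shares below are a description only. Without hulled replicate 2 or hull-less replicate 3 at 5 DAP, 114 and 117 of the members met the rule. Without hulled replicate 1 or hull-less replicate 2 at 20 DAP, 132 and 119 did. Hulled replicate 2 was the lowest of its group at 5 DAP for 114 members (84.4%), compared with 33.8% of the 14074 features. Hull-less replicate 3 was the lowest at 5 DAP for 105 members (77.8% against 27.0%). At 20 DAP hulled replicate 1 was the lowest for 99 members (73.3% against 34.3%) and hull-less replicate 2 for 78 (57.8% against 20.8%). In bulk tissue, fewer cells of a type and less RNA per cell cannot be told apart.

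Next the accessions were compared at each stage, to ask whether the members differed in level between H and HL. The rule asked for no difference between accessions, but it used the group means of every stage in both. The values tested here and in the later comparisons thus also chose the members. Shares of members called are therefore set beside those of all features as a description only. Genes were called by edgeR's quasi-likelihood test when the adjusted p was 0.05 or less and the log2 fold change was 1 or more in size. At 5 DAP, 9 of 122 tested members were higher and 3 lower in HL, where 5.53% of all features were higher and 6.43% lower (12% in all). The median log2 difference of HL over H was 0.66 over the members and -0.01 over all features. Over the members it was 1.07 without hulled replicate 1, 0.35 without hulled replicate 2 and 0.29 without hull-less replicate 2. The count was 5 without hulled replicate 3, 6 without hull-less replicate 1 and 5 without hull-less replicate 2.

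The pre-mRNA cleavage factor CFIm25-1 (Cp4.1LG11g11840), a subunit that helps set the 3′ ends of transcripts, had 0.969, 0.869 and 0.281 CPM in H and 9.72, 14.9 and 10.4 CPM in HL at 5 DAP, with no overlap. Its log2 difference was 4.04 ± 0.39 (SE, adjusted p = 6.77e-04). Pectin acetylesterase 8 (Cp4.1LG01g01410), which removes acetyl groups from pectin, went the other way, with 5.02, 3.77 and 3.83 CPM in H and 1.28, 0.985 and 0.445 CPM in HL. The difference was -2.21 ± 0.39 (SE, adjusted p = 0.00652).

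At 10 DAP 4 of 135 members were higher in HL and 1 was lower, against 5.42% and 5.56% of all features (11% in all). This count changed most when hulled replicate 1 was left out. Without it, 25 members were higher and 10 lower, against 7.99% and 7.64% of all features (15.6% in all), and the 5 called before were among these 35. The count was 3 without hulled replicate 2, 1 without hulled replicate 3, 2 without hull-less replicate 1, and 0 without hull-less replicate 2 or 3, where edgeR gave 8 and 10 members an unadjusted p under 0.05. The median log2 difference was 0.84 over the members with all libraries, 0.42 without hulled replicate 1 and 1.27 without hulled replicate 2.

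The 5 members called with all libraries were Cp4.1LG00g13170, CFIm25-1, defensin-like protein 19 (Cp4.1LG06g07200), pectin acetylesterase 8 and malate synthase. Cp4.1LG00g13170, which has no description, measured 2.03, 12.4 and 13.7 CPM in H and 122, 112 and 85.6 CPM in HL. The log2 difference of 3.65 ± 0.76 (SE, adjusted p = 0.0280) came with no overlap of libraries. Malate synthase was the one lower in HL, by a log2 difference of -1.33 ± 0.32 (SE, adjusted p = 0.0404). Both calls were lost with any library left out other than hulled replicate 1, and over all alternatives the adjusted p ran from 4.91e-06 to 0.089 for Cp4.1LG00g13170 and from 7.14e-04 to 0.152 for malate synthase.

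At 20 DAP 37 of 121 tested members (30.6%) were higher in HL and 10 (8.26%) lower, where 8.37% of all features were higher and 12.7% lower (21.1% in all). The median log2 difference was 0.76 over the members and -0.01 over all features. Without hulled replicate 1 there were 19 higher and 12 lower, without hulled replicate 2 there were 13 and 10, and without hull-less replicate 3 there were 21 and 11. A fit of all 18 libraries called 11 higher and 6 lower. At this stage the endosperm list summed to 89.3 to 134 CPM in H and 27.1 to 54.4 CPM in HL, and the photosynthetic list (107 genes, 11 at 0 in all libraries) to 5507 to 6162 CPM in H and 12258 to 12510 CPM in HL. The embryo and storage list summed to 12465, 10278 and 4591 CPM in H and to 5101, 2358 and 2394 CPM in HL, the pollen or anther list to 10199 to 14311 CPM in H and 4890.1 to 5836 CPM in HL, and the 4 SCW genes to 768 to 1018 CPM in H and 154 to 174 CPM in HL. Their part in the member differences was not tested.

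**Figure D5:**
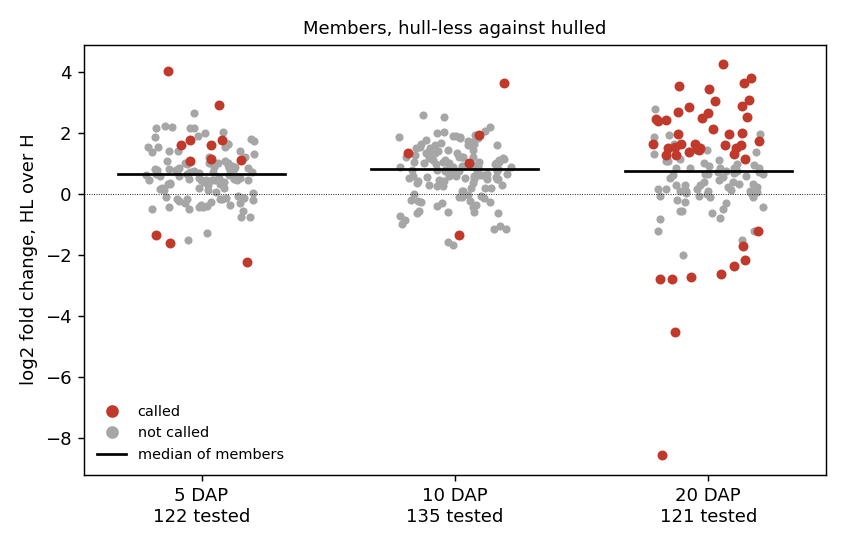
log2 fold change of HL over H for each tested member at 5, 10 and 20 DAP (122, 135 and 121 members); red points were called, grey points were not, and the black lines are medians (0.66, 0.84 and 0.76). At 20 DAP 37 members were called higher and 10 lower in HL.

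By description words for signalling, 8 of 15 tested members were higher and 1 lower in HL at 20 DAP, against 211 higher and 253 lower of 2505 such features. Of all 121 tested members, 37 (30.6%) were higher and 10 (8.26%) lower, so a high share is not particular to this list. Calls per list under the alternatives are not given here. The 14 members grouped above as calcium and phosphorylation signalling, a choice made after values were seen, held 8 that were higher. Protein phosphatase 2C 25 had 9.78, 39.8 and 53.01 CPM in H and 219, 137 and 773 CPM in HL at that stage, with no overlap and a log2 difference of 3.66 ± 0.89 (SE, adjusted p = 0.0163). Cp4.1LG00g02950, the calcium-binding protein CML19, stood at 0.133, 1.30 and 2.496 CPM in H and 20.5, 5.88 and 23.6 CPM in HL, a difference of 3.81 ± 0.85 (SE, adjusted p = 0.0117). Both MPK3 genes and FERONIA were also called, with log2 differences of 1.75, 1.53 and 1.64. Of wall enzymes by description words, 3 of 8 tested members were higher, against 62 higher and 88 lower of 519 such features. The members called higher included the glucan synthase Cp4.1LG02g06370 with a log2 difference of 2.65 ± 0.73 (SE, adjusted p = 0.0260). The phosphatase call was lost without hulled replicate 2 (adjusted p over all alternatives 9.92e-04 to 0.06), and that of the glucan synthase without hulled replicate 1 or 2 or hull-less replicate 3, or with all 18 libraries in one fit (0.00732 to 0.11). The others of these genes were named after their values were seen, and whether their calls held under the alternatives is not given here. CML19 had only 2, 18 and 38 counts in H at 20 DAP.

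Phosphate transporter PHO1 homolog 3 (Cp4.1LG01g22730) had 5.59, 7.38 and 10.4 CPM in H and 43.7, 25.5 and 43.02 CPM in HL at 20 DAP. The log2 difference was 2.41 ± 0.31 (SE, adjusted p = 0.00146). Among the 10 lower in HL, γ-VPE had 238, 85.2 and 186 CPM in H and 1.69, 3.83 and 14.02 CPM in HL, with no overlap. The log2 difference of γ-VPE was -4.50 ± 0.83 (SE, adjusted p = 0.00562). Aldose 1-epimerase (Cp4.1LG18g08110), a sugar-converting enzyme, had 466, 97 and 273 counts in H and 1, 1 and 0 counts in HL. Summed over libraries and scaled by their totals, H was 501 times HL, with an exact 95% interval of 138 to 4139.8 that covers counting error only.

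MLO-like protein 1 (Cp4.1LG17g02980), the lectin receptor kinase Cp4.1LG20g04380 and Cp4.1LG00g13170 were called higher in HL at both 5 and 20 DAP, and a locus outside the annotation with a retrotransposon gag domain lower at both. Each of these 4 calls at 5 DAP was lost without at least 1 single library. The losses came without hulled replicate 3 or hull-less replicate 2 for the MLO-like gene, without hulled replicate 3 or hull-less replicate 1 or 2 for the kinase, without replicate 1 of either accession or hull-less replicate 2 for Cp4.1LG00g13170, and without hulled replicate 1 or 3 or hull-less replicate 2 or 3 for the unannotated locus. Over all alternatives the adjusted p reached 0.188, 0.0716, 0.115 and 0.0975 in that order, from lowest values of 1.12e-04, 1.59e-04, 0.0193 and 0.00347. At 20 DAP the kinase call was lost without hulled replicate 1 or 3 or hull-less replicate 3, or with all 18 libraries in one fit (adjusted p 0.0012 to 0.0621 over all alternatives). Of 12 members called at 5 DAP and 47 at 20 DAP, 6 were shared, and 4 of these kept their direction. Pectin acetylesterase 8 was one of the others, with 0.599, 1.95 and 0.788 CPM in H and 3.21, 2.83 and 2.84 CPM in HL at 20 DAP. Its call at 20 DAP was lost without hulled replicate 1 or 3 or any single hull-less replicate (adjusted p 0.00437 to 0.11 over all alternatives).

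Levels after the peak were compared with those before it within each accession. The rule held both levels under the same limit, set by the peak, so the shares called describe the members and do not set them apart from all features. In H 15 of 123 tested members were higher at 20 than at 5 DAP and 4 lower, where 19.8% of all features were higher and 20.6% lower (40.4% in all). Without hulled replicate 2 at 5 DAP, 13 were higher and 26 lower. In HL 13 of 122 were higher and 11 lower, against 18% and 23.1% of all features (41.1% in all). Without hull-less replicate 3 at 5 DAP, 13 were higher and 19 lower. The median log2 change over the members was 0.10 in H and 0.32 in HL, and neither kept its sign. In H it was 0.51 without replicate 1 and -0.28 without replicate 2 at 5 DAP, and 0.21 without replicate 1 and -0.09 without replicate 3 at 20 DAP. In HL it was 0.60 without replicate 2 and -0.03 without replicate 3 at 5 DAP, and -0.14 without replicate 3 at 20 DAP.

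Galactinol synthase 2 had 0, 1 and 0 counts in H at 5 DAP and 73, 31 and 51 counts at 20 DAP. Summed over libraries and scaled by their totals, the ratio was 185, with an exact 95% interval of 32.7 to 7348 that covers counting error only. In HL it went from 0.243, 0.521 and 0.222 to 2.39, 2.16 and 1.99 CPM, a log2 change of 3.08 ± 0.40 (SE, adjusted p = 5.14e-04) that was not called with all 18 libraries in one fit. An N-acetyltransferase of the HOOKLESS1 type (Cp4.1LG03g08870) was higher at 20 DAP in both accessions, by log2 changes of 4.99 ± 0.95 (SE, adjusted p = 0.00242) in H and 3.80 ± 0.71 (SE, adjusted p = 0.00280) in HL. YUCCA8 was lower in both, going from 11.6, 1.80 and 6.64 to 0.200, 0 and 0.131 CPM in H and from 7.84, 5.39 and 1.11 to 0.933, 0 and 0.170 CPM in HL. In HL this call was lost without replicate 1 or 2 at 5 DAP or replicate 2 or 3 at 20 DAP, or with all 18 libraries in one fit, with an adjusted p of 0.00358 to 0.11 over all alternatives. Of 19 members called in H and 24 in HL, 12 were shared, and 8 of these kept their direction.

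The change from 5 to 20 DAP itself differed between accessions for 6 of 135 members, with 2 more positive and 4 more negative in HL. Over all features 6.03% were more positive and 7.85% more negative (13.9% in all). Inositol transporter 2 went from 187, 175 and 179 to 25.5, 33.8 and 21.6 CPM in H and from 107, 104 and 114 to 28.1, 65.4 and 68.7 CPM in HL. The accession difference in its log2 change was 1.89 ± 0.45 (SE, adjusted p = 0.00878). Pectin acetylesterase 8 fell in H and rose in HL, with a difference of 3.77 ± 0.52 (SE, adjusted p = 1.91e-04). The count was 9 without hulled replicate 1 at 10 DAP and 4 without hulled replicate 2 at 20 DAP.

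At the edge of the rule, the members just inside were syntaxin-121 (Cp4.1LG08g09630, smallest fold 4.01), protein phosphatase 2C 2 (Cp4.1LG12g06400, 4.01) and CFIm25-1 (4.03). Just outside lay a CCCH zinc finger gene (Cp4.1LG01g06830, 3.99), UDP-glucose 6-dehydrogenase 1 (Cp4.1LG03g09520, 3.97) and a UDP-glucuronate 4-epimerase (Cp4.1LG00g04430, 3.97). The last pair supply nucleotide sugars for wall polysaccharides.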

How the data were processed

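Seed coat RNA of the 18 libraries was sequenced on an Illumina instrument. The authors removed reads of low quality, mapped the rest to the zucchini genome and deposited read counts per feature as whole numbers, with no normalization. The aligner, counter and strandedness are not given in the sources used here. The authors also deposited FPKM values, computed with Cufflinks per the methods and used here for ranking and for one alternative. The authors' own fold changes, p-values and group means were not used, and the column of transcription factor families holds protein domain names.

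Members came from CPM on plain library totals. For tests, features were filtered with filterByExpr, scaled by TMM and fitted with the quasi-likelihood test of edgeR 4.0.16 (limma 3.58.1, R 4.3.3) to the 6 libraries compared, or to all 18 for the accession difference in the 20 against 5 DAP change. The SE is the absolute log2 fold change over the square root of F. DESeq2 1.42.0 was an alternative, beside other scalings, filters, the replicate number as a block and leaving out each library. In data simulated for the comparison at 10 DAP (20737 features, 200 changed), 30 of 100 changes of 1.5 and 91 of 100 of 3 on the log2 scale were recovered with 5 false calls. At 20 DAP (21650 features) 84 and 98 of 100 were recovered with 12 false calls. Counts were drawn independently for each feature, with the changes placed among all features of at least 5 CPM. Most members shared a low library at 10 DAP, so these rates do not describe recovery among the members.

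Members and lists were chosen with earlier results of these data known. Named genes are the 10 highest by FPKM, up to 10 with words of transcription factors, up to 3 per list of description words, those called between accessions or stages up to a set number per direction, and the 3 on each side of the rule. Words match parts of words, so the transcription factor list also holds phosphatases and an inositolphosphotransferase. Others are named by family after their values were seen. None of the 29484 identifiers (0) matched the RefSeq gene table, so no sequence is shown.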

Additional observations from a re-analysis of the deposited data

Results flagged for a closer look

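The 20 against 5 DAP change differed between H and HL in 6 members by a test of the difference itself (edgeR, one fit of all 18 libraries). Inositol transporter 2 (Cp4.1LG20g05380) differed by 1.89 ± 0.45 (SE, adjusted p = 0.00878) on the log2 scale, HL minus H, and pectin acetylesterase 8 (Cp4.1LG01g01410) by 3.77 ± 0.52 (SE, adjusted p = 1.91e-04). Aldose 1-epimerase (Cp4.1LG18g08110) differed by -8.99 ± 1.44 (SE, adjusted p = 6.28e-04), a fitted value that depends on the prior count since HL held 1, 1 and 0 counts at 20 DAP. The PDDEXK-like gene Cp4.1LG05g10670 differed by -3.18 ± 0.93 (SE, adjusted p = 0.0256) and the cleavage factor subunit CFIm25-1 (Cp4.1LG11g11840) by -3.05 ± 0.69 (SE, adjusted p = 0.00654). Malate synthase (Cp4.1LG20g03190) differed by -2.18 ± 0.59 (SE, adjusted p = 0.0178). The difference of Cp4.1LG05g10670 was lost without hulled replicate 3 at 5 DAP, hulled replicate 2 at 20 DAP, hull-less replicate 1 at 5 DAP or hull-less replicate 3 at 20 DAP (adjusted p 0.00292 to 0.0743 over all alternatives), and that of malate synthase without hulled replicate 2 at 20 DAP (3.67e-04 to 0.0557). Groups of 3 libraries were too small for the search for single outlying values.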

How the results depend on the processing

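The number of members depended on the scale and the fold limit. The rule took 262 features on TMM-scaled CPM, all 135 members among them, and 255 on the deposited FPKM, 131 of them members. TMM moved the median log2 ratio of 10 over 5 DAP over the 14074 features from -0.16 to 0.24 in H and from -0.39 to 0.23 in HL. A fold limit of 3 took 267 features and one of 6 took 54. Asking every 10 DAP library to exceed 4 times the highest 5 and 20 DAP library left 8. Leaving out one library gave 104 to 169 features.

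The number of members called between accessions at 5 DAP (12) became 5 with all 18 libraries in one fit and 5 to 17 without one library. At 10 DAP (5) it was 8 with DESeq2, 8 with all 18 libraries and 0 to 35 without one library. At 20 DAP (47) it was 17 with all 18 libraries and 23 to 53 without one library. For 20 against 5 DAP it was 17 to 39 without one library in H (19 with all), 14 with all 18 libraries in HL (24) and 19 to 32 without one library in HL. The 6 accession differences in that change became 2 when 10 counts were asked of every library, with fewer features tested, and 4 to 9 without one library. Other alternatives stayed within 1.5 times.

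Replicate numbers did not pair the libraries: deviations of same-numbered libraries correlated at -0.25 to 0.26, above 0.1 in 4 of 15 pairs. With the replicate number as a block, 7 members were called at 5 DAP and 0 at 10 DAP, where edgeR gave 17 an unadjusted p under 0.05. Of 70 calls named for single genes, 31 held under every alternative, 39 were lost under at least 1, and 0 reversed.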
